A study of Homo sapiens with 20 samples.

Results

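The inflammasome and pyroptosis genes described here are PYCARD, CASP1, CASP4, AIM2, NLRP1, NLRP3, GSDMD, GSDMB, IL18 and IL1B. They were found by symbol in the deposited expression table, where each has 1 row, so that the set is 10 of 36076 rows. The study exposed human lung cancer cell lines to decitabine (DAC), a nucleoside analog that traps DNA methyltransferases and lowers DNA methylation as cells divide. Cells received 100 nM DAC for 72 h and then grew without the drug for 3 days, and the Mock cells received PBS. mRNA-seq covers A549, H1299, H1792, PC9, CL1-0 and CL1-5, and Omni-ATAC-seq, which reads open chromatin through transposase cuts, covers A549, CL1-5, PC9 and H1299. Each line and treatment has 1 library (12 mRNA-seq and 8 ATAC-seq libraries), so a change within 1 line has no replicate check, and the test across lines treats the lines as the replicates. All values are from established cell lines grown in culture, and no methylation was measured in the data used here.

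Inflammasomes are protein assemblies that answer danger inside the cell. A sensor (NLRP1, NLRP3, or AIM2 for DNA in the cytosol) recruits the adaptor ASC, the product of PYCARD, and ASC recruits caspase-1 (CASP1). Caspase-1 matures the cytokines interleukin-1β (IL1B) and interleukin-18 (IL18) and cuts gasdermin D (GSDMD), whose released end forms pores in the plasma membrane and brings on pyroptosis, a lytic cell death. Caspase-4 (CASP4) binds bacterial lipopolysaccharide in the cytosol and cuts gasdermin D by itself, and gasdermin B (GSDMB) is a relative of gasdermin D. PYCARD is also known as TMS1, for target of methylation-induced silencing.

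The promoters of PYCARD, AIM2 and IL1B are shown as examples, PYCARD being CpG-dense and AIM2 and IL1B CpG-poor. CpG is the dinucleotide that DNA methylation acts on. PYCARD was silent in 2 Mock lines, IL1B in 4 and AIM2 in 5. NLRP3, silent in 4, also had a promoter sequence, which is not shown. Promoter sequence was found in the RefSeq promoter table (GRCh38.p14) for 5 of the 10 genes: PYCARD, CASP4, AIM2, NLRP3 and IL1B. No sequence is shown for CASP1, NLRP1, GSDMD, GSDMB and IL18. Each sequence gives the 250 bases before the transcription start, 5′ to 3′ on the minus strand, with every CG in capitals. Each matched 1 place in GRCh37, at chr16:31214082-31214331 for PYCARD, chr1:159046557-159046806 for AIM2 and chr2:113594357-113594606 for IL1B.
PYCARD: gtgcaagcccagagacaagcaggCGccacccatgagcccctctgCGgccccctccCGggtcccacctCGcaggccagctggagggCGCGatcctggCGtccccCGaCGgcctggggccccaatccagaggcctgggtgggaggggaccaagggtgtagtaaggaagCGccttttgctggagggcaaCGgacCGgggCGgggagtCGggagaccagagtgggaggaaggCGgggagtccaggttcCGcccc
AIM2: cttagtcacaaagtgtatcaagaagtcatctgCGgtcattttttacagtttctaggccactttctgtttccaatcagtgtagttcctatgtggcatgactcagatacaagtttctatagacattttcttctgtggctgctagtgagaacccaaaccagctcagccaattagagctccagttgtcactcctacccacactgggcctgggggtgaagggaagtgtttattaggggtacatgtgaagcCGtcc
IL1B: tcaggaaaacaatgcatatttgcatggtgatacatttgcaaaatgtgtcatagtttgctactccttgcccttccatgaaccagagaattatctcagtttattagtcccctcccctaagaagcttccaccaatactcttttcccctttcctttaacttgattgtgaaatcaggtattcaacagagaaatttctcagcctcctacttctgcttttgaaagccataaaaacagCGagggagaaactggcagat

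The PYCARD promoter was the only CpG-dense one of the 5 promoters found. Over the 300 bases of the table's window, PYCARD had 23 CG dinucleotides and a GC content of 72.0%, NLRP3 had 5 CG, CASP4 had 3, and AIM2 and IL1B had 2 each. The median over the 35116 promoters of the table was 14, and 64.2% of them held fewer CG than PYCARD, against 11.0% for AIM2 and IL1B. Motifs were searched by their letters on both strands. The interferon-stimulated response element (a pair of GAAA with 2 bases between them) was matched once in AIM2 and in 3.57% of all promoters. TGANTCA, the AP-1 site, was matched once in AIM2 and in 7.71% of all promoters. TTCNNNGAA, the STAT site, was matched once in IL1B and in 7.66% of all promoters. The letters of these 3 motifs did not occur in the windows of PYCARD, CASP4 and NLRP3.

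The libraries differ in ways that touch the values below. Reads counted on genes numbered 22234485 to 25303899 in the 10 libraries other than H1299, and 52634234 and 59735913 in those of H1299. In the H1299 libraries 81.6 to 85.1% of genes with 1 to 30 reads held an even count, while 39.9 to 42.2% did elsewhere, so a single H1299 fragment mostly stands as a pair of reads, and counting limits are too narrow there. Of 5 epithelial markers the summed Mock level ran from 0.986 FPKM in CL1-0 to 3015 in A549. The 3 lung lineage markers NKX2-1, NAPSA and SFTPB were each under 1 FPKM in all libraries. The 7 leukocyte markers summed to between 0.790 and 5.48 FPKM in Mock and between 1.27 and 9.38 in DAC, highest in A549, where CD14 alone was at 4.23 and 7.38, and the pan-leukocyte gene PTPRC reached no more than 0.0759 in any library. The ATAC libraries labelled CL1-5 carry PC9 in their peak names and those labelled PC9 carry CL15. Of 154 genes at 5 FPKM or more in PC9 and silent in CL1-5, a promoter peak was listed for 85.7% under the Mock label CL1-5 and for 48.1% under the Mock label PC9. For the 92 genes with the reverse expression these shares were 54.3% and 75.0%. Both the peak names and these shares go against the labels. The libraries are written here as labelled, and exchanging the labels swaps CL1-5 and PC9 in each statement on them.

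Silence before the drug varied between lines and was most frequent in CL1-0. Taking an FPKM under 0.1 as silent, 20 of the 60 gene and line pairs were silent in Mock and 14 in DAC. CL1-0 had 7 silent genes (PYCARD, CASP1, CASP4, AIM2, NLRP3, GSDMD and IL1B), PC9 had 4 (CASP1, AIM2, NLRP3 and IL1B), A549 had 3 (AIM2, NLRP3 and IL1B), H1299 had 3 (PYCARD, AIM2 and IL1B), CL1-5 had 2 (CASP1 and AIM2) and H1792 had 1 (NLRP3). Of the 22814 genes with a mean of at least 0.1 FPKM over the 12 libraries, 21.1% were silent in Mock CL1-0, 20.0% in PC9, 20.4% in A549, 35.4% in H1299, 17.7% in CL1-5 and 20.3% in H1792. No library held PYCARD, CASP1 and GSDMD all at 1 FPKM or more (0 of 12), and the DAC library of H1792 was the only one with all 3 at 0.5 or more.

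**Figure D1:**
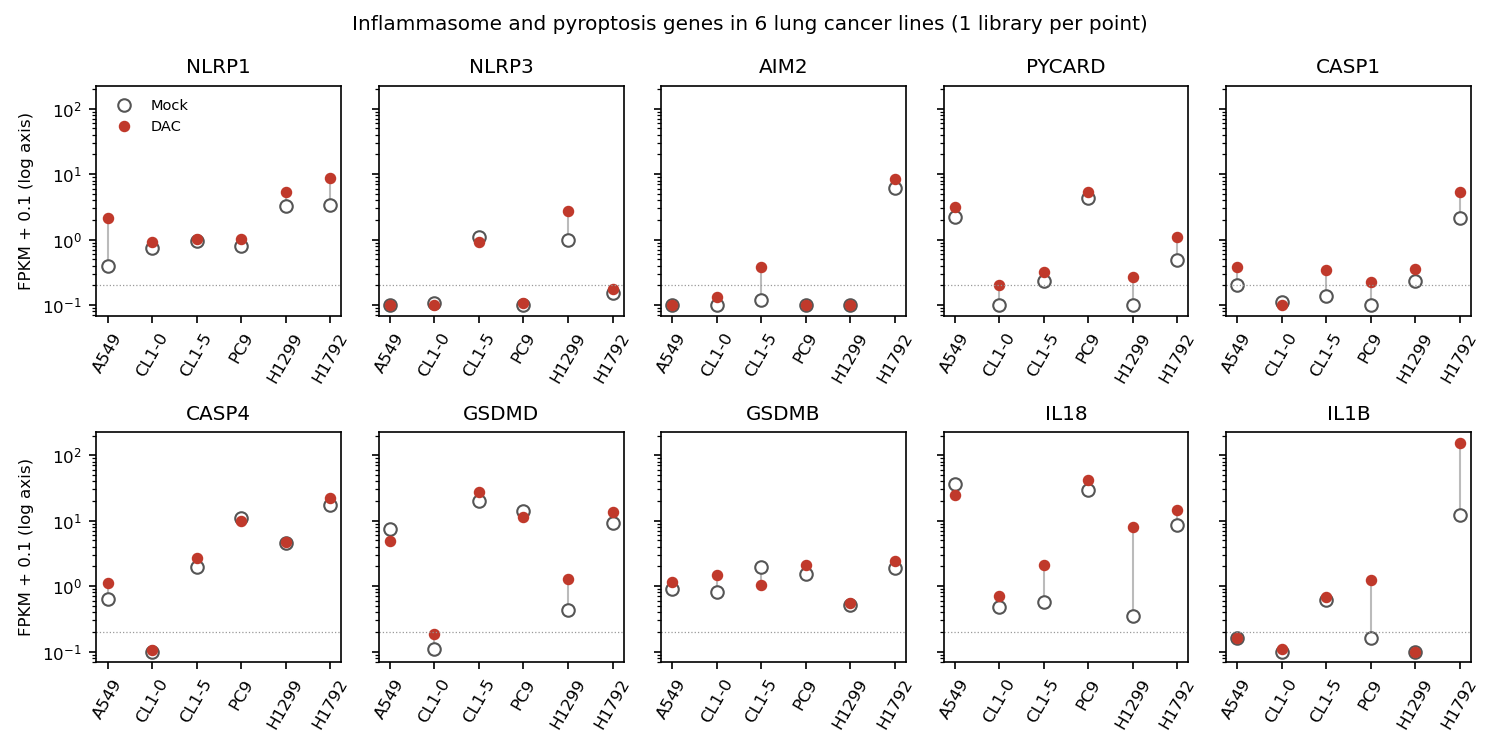
FPKM + 0.1 on a log axis for each of the 10 genes in 6 cell lines, with Mock as open and DAC as filled circles, 1 library per circle; the dotted line marks an FPKM of 0.1. H1792 stands highest for CASP1, AIM2 and IL1B, PYCARD is highest in PC9 and A549, and the widest gaps between Mock and DAC are IL18 in H1299 and IL1B in H1792.

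Among the sensors, NLRP1 was the one present in all 6 lines. NLRP1 (chr17:5402735-5522744, minus strand, GRCh37) stood in Mock at 0.291 FPKM in A549, 0.702 in PC9, 0.635 in CL1-0, 0.838 in CL1-5, 3.21 in H1299 and 3.27 in H1792. After DAC it stood at 2.02 in A549, 0.918 in PC9, 0.833 in CL1-0, 0.929 in CL1-5, 5.18 in H1299 and 8.51 in H1792. DAC was above Mock in all 6 lines, with the largest ratio in A549 at 6.94 (95% counting interval 5.49 to 8.86) and the next in H1792 at 2.60 (2.42 to 2.80), while CL1-5 was at 1.11 (0.939 to 1.31). These intervals, here and below, are exact conditional binomial ones on the recovered reads and cover counting error only, not the difference between cultures.

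NLRP3, the sensor of ion efflux and other cell stress, was expressed in CL1-5 and H1299 only at 0.1 FPKM or more. NLRP3 (chr1:247579458-247612410, plus strand) was at 1.02 FPKM in Mock and 0.814 in DAC in CL1-5, and at 0.904 and 2.66 in H1299. In A549 it had no read in either library, in CL1-0 1 read in Mock and none in DAC, in PC9 none and 1, and in H1792 6 and 9 reads. The H1299 ratio was 2.94 (2.54 to 3.42) and that in CL1-5 0.801 (0.608 to 1.05), so the lines that express the gene went opposite ways, with the counting interval of CL1-5 reaching past 1. Of the NLRP3 exonic bases in GENCODE v44, 66.0% are shared with ENSG00000289728 on the same strand, and reads there cannot be told apart.

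AIM2, the sensor of cytosolic DNA, was a gene of H1792 in these lines. AIM2 (chr1:159031389-159157633, minus strand) was at 6.02 FPKM in Mock and 8.46 in DAC in H1792, a ratio of 1.41 (1.21 to 1.64). A549, PC9 and H1299 had no AIM2 read in either library, where the floor of 3 reads is the limit of what could be seen, and CL1-0 had none in Mock and 2 in DAC. CL1-5 went from 1 read (0.0184 FPKM) to 14 (0.287 FPKM), a ratio of 15.6 with a counting interval of 2.38 to 661. The mean over the 10 libraries without H1792 was under the filter of 0.1 FPKM, so that AIM2 was the member not tested across the 5 lines.

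PYCARD, the adaptor that joins sensor and caspase, was at or near 0 in Mock in 3 lines. PYCARD (chr16:31212807-31214771, minus strand) stood in Mock at 2.08 FPKM in A549, 4.26 in PC9, 0 in CL1-0, 0.133 in CL1-5, 0 in H1299 and 0.388 in H1792. After DAC it stood at 3.07 in A549, 5.23 in PC9, 0.102 in CL1-0, 0.223 in CL1-5, 0.171 in H1299 and 0.978 in H1792. DAC was above Mock in all 6 lines, but no line under 1 FPKM in Mock reached 1 FPKM in DAC, and the lines without PYCARD stayed far below PC9 and A549. The reads behind the low values were 0 in Mock and 5 in DAC in CL1-0, 6 and 9 in CL1-5, 0 and 15 in H1299, and 16 and 39 in H1792. With no read in Mock, the DAC level of PYCARD was 1.33 times the floor of 3 reads in CL1-0 and 5.41 times in H1299. These multiples leave out the counting error of the DAC reads, so they are not lower limits. The ratio was 2.52 (1.38 to 4.83) in H1792, 1.48 (1.10 to 1.99) in A549, 1.23 (0.988 to 1.53) in PC9 and 1.67 (0.532 to 5.72) in CL1-5. In GENCODE v44, 59.7% of PYCARD exonic bases lie under the antisense gene PYCARD-AS1, and since the strand setting of the counting is not given in the sources used here, reads of the pair cannot be told apart.

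The genes of the table whose level followed PYCARD most closely over the 12 libraries were ADGRG1 (Pearson r of log2(FPKM + 0.1) 0.972), FRK (0.968) and VSIR (0.968). ADGRG1, an adhesion receptor, ranged from 0.147 to 20.3 FPKM, the kinase gene FRK from 0.0128 to 2.09, and VSIR, which encodes the checkpoint protein VISTA, from 0.682 to 21.7. Mock and DAC of a line share most of their pattern, so these 12 points hold about 6 separate ones, and the correlations are given as a description.

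CASP1, the effector protease of inflammasomes, was low everywhere except in H1792. CASP1 (chr11:104896124-104905977, minus strand) stood in Mock at 0.101 FPKM in A549, 0 in PC9, 0.0115 in CL1-0, 0.0399 in CL1-5, 0.132 in H1299 and 2.02 in H1792. After DAC it stood at 0.278 in A549, 0.129 in PC9, 0 in CL1-0, 0.245 in CL1-5, 0.256 in H1299 and 5.30 in H1792. DAC was above Mock in all lines but CL1-0, where 1 read stood against none, yet in the other 4 low lines the DAC level stayed under 0.3 FPKM on 11 to 50 reads. The ratio was 2.63 (2.2 to 3.13) in H1792, 2.75 (1.21 to 7.04) in A549, 6.14 (2.08 to 24.5) in CL1-5 and 1.93 (1.19 to 3.19) in H1299. In PC9 the DAC level was 3.29 times the floor, which leaves out the counting error of the DAC reads.

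CASP4, the lipopolysaccharide-binding caspase, was well expressed in most lines and changed by less than 2-fold in each line with reads in both libraries. CASP4 (chr11:104813593-104840093, minus strand) stood in Mock at 0.547 FPKM in A549, 10.8 in PC9, 0 in CL1-0, 1.83 in CL1-5, 4.51 in H1299 and 17.1 in H1792. After DAC it stood at 1.02 in A549, 9.92 in PC9, 0.00465 (1 read) in CL1-0, 2.57 in CL1-5, 4.55 in H1299 and 22.5 in H1792. The ratio lay between 0.917 in PC9 and 1.86 (1.43 to 2.44) in A549, and CL1-0 stayed without the transcript. After rescaling all libraries to a common sum, CASP4 in A549 was past 2-fold higher. The distance between the highest and the lowest line was larger than the change with DAC in any of the 6 lines.

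GSDMD, the pore-forming substrate of caspase-1 and caspase-4, was above 1 FPKM in 4 Mock lines and at 1 read in CL1-0. GSDMD (chr8:144635377-144645232, plus strand) stood in Mock at 7.47 FPKM in A549, 13.8 in PC9, 0.00828 in CL1-0, 19.6 in CL1-5, 0.328 in H1299 and 9.00 in H1792. After DAC it stood at 4.80 in A549, 11.1 in PC9, 0.0858 in CL1-0, 27.0 in CL1-5, 1.19 in H1299 and 13.5 in H1792. H1299 had the largest change on more than a few reads, with a ratio of 3.63 (2.88 to 4.61), and CL1-0 went from 1 read to 13. A549 at 0.642 (0.578 to 0.714) and PC9 at 0.805 (0.747 to 0.868) went the other way, so the direction differed between lines. GSDMB (chr17:38060848-38076107, minus strand) stayed between 0.409 and 1.86 FPKM in Mock and between 0.455 and 2.29 in DAC. It was higher in DAC in 5 lines, most in CL1-0 with a ratio of 1.88 (1.48 to 2.40), and lower in CL1-5 at 0.498 (0.403 to 0.613).

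IL18 held the largest change of any member in any line. IL18 (chr11:112013976-112034819, minus strand) stood in Mock at 36.6 FPKM in A549, 29.0 in PC9, 0.387 in CL1-0, 0.463 in CL1-5, 0.246 in H1299 and 8.53 in H1792. After DAC it stood at 24.3 in A549, 41.5 in PC9, 0.604 in CL1-0, 2.02 in CL1-5, 7.96 in H1299 and 14.3 in H1792. In H1299 the reads went from 37 to 1106, a ratio of 32.3 (23.3 to 46.2), which brought that line near the Mock level of H1792. CL1-5 followed with 4.36 (2.96 to 6.60), and A549, the highest line in Mock, was lower in DAC at 0.663 (0.621 to 0.708).

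IL1B was a transcript of H1792, with a second change in PC9. IL1B (chr2:113587328-113594393, minus strand) was at 12 FPKM in Mock and 154 in DAC in H1792, 925 and 11439 reads, a ratio of 12.8 (12 to 13.7). In PC9 it went from 0.0622 to 1.16 FPKM, 4 to 83 reads, a ratio of 18.6 (7.01 to 70.0). CL1-5 was at 0.512 and 0.572 FPKM and A549 at 0.0603 and 0.0638, CL1-0 had no read in Mock and 1 in DAC, and H1299 had none in either library. IL1A, which encodes the other interleukin-1 ligand, interleukin-1α, was at 3.09 and 52.6 FPKM in H1792 and at 0.294 and 1.97 in PC9.

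**Figure D2:**
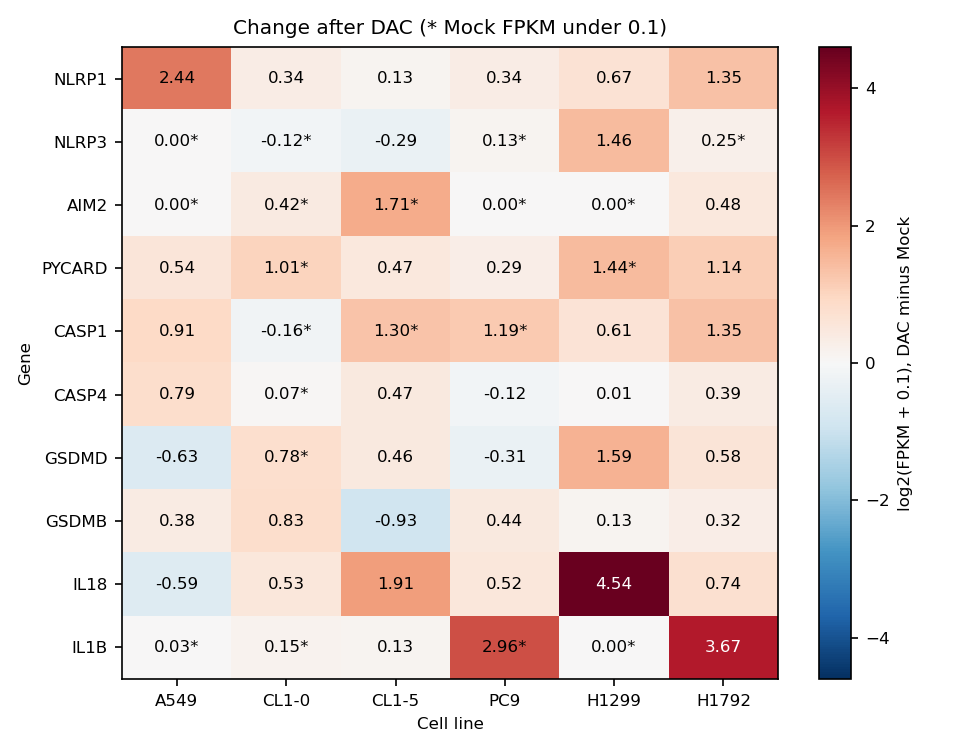
Difference of log2(FPKM + 0.1), DAC minus Mock, for each gene (rows) and cell line (columns), 1 library per line and treatment; an asterisk marks a Mock FPKM under 0.1. The deepest cells are IL18 in H1299 (4.54), IL1B in H1792 (3.67) and PC9 (2.96) and NLRP1 in A549 (2.44), and no cell is at -1 or lower.

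Counted by a 2-fold limit on log2(FPKM + 0.1), 15 of the 60 pairs were higher after DAC and 0 were lower, and in 6 of the 15 the gene was silent in Mock. By any amount, 47 pairs were higher, 8 lower and 5 at 0 in both libraries. In A549 the gene past the limit was NLRP1 (1 of 10, where 15.5% of all 22814 genes were past it). In CL1-0 it was PYCARD (1 of 10, against 7.6% of all genes). In CL1-5 they were CASP1, AIM2 and IL18 (3 of 10, against 7.23%). In PC9 they were CASP1 and IL1B (2 of 10, against 10.3%), in H1299 PYCARD, NLRP3, GSDMD and IL18 (4 of 10, against 8.04%), and in H1792 PYCARD, CASP1, NLRP1 and IL1B (4 of 10, against 11.0%). With 10 genes and 1 library per arm these shares are a description, and in A549 and CL1-0 the count of 1 is near the background.

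Genes lower by 2-fold were 6.65% of all genes in A549, 3.1% in PC9, 2.11% in CL1-0, 5.08% in CL1-5, 3.12% in H1299 and 6.1% in H1792, with none of the 10 genes among them in any line. Of the genes silent in Mock, the share past 2-fold higher was 39.7% in A549, 27.4% in PC9, 21.2% in CL1-0, 22.0% in CL1-5, 10.4% in H1299 and 24.8% in H1792. For the members these were 0 of 3 in A549, 2 of 4 in PC9, 1 of 7 in CL1-0, 2 of 2 in CL1-5, 1 of 3 in H1299 and 0 of 1 in H1792. The counts rest on low FPKM: with a pseudocount of 1 the number of higher pairs was 7, with a 4-fold limit 4, namely NLRP1 in A549, IL1B in PC9 and H1792 and IL18 in H1299.

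Interferon-stimulated genes were set beside these values because interferon induces several inflammasome genes. The median log2 difference of 10 such genes was 2.16 in A549, 0.38 in PC9, 0.05 in CL1-0, 3.01 in CL1-5, 1.02 in H1299 and 0.79 in H1792. IFI27 had the highest value in all lines but CL1-0, from 2.05 in PC9 to 5.70 in A549. In the order of that median, highest first, the inflammasome genes past 2-fold higher were 3 of 10 in CL1-5, 1 in A549, 4 in H1299, 4 in H1792, 2 in PC9 and 1 in CL1-0. The part of the interferon-stimulated genes in these results was not tested.

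Across the 5 lines of the main comparison (all but H1792), no member passed the adjusted threshold of 0.05 in limma. Of the 22603 genes tested, 27 were called higher (0.119%) and 0 lower (0.0%), and at an unadjusted p under 0.05 there were 1825 higher (8.07%) and 994 lower (4.4%). After rescaling to a common sum per library the unadjusted split was 2496 higher and 536 lower, and after quantile normalization 1130 and 1668. Of the 9 members tested, 9 had an estimate above 0, 0 were called and 2 had an unadjusted p under 0.05, both higher. Their median estimate was 0.65, against 0.07 over all genes, of which 58.8% were above 0.

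PYCARD had the smallest p of the members, with a log2 fold change of 0.75 ± 0.23 (SE) and an adjusted p of 0.299 from limma, and it was higher in 5 of 5 lines. CASP1 followed at 0.77 ± 0.28 (adjusted p = 0.347, higher in 4 of 5 lines). The largest estimate was IL18 at 1.38 ± 0.66 (adjusted p = 0.433), and without H1299 it was 0.59. NLRP1 was at 0.79 ± 0.34 (adjusted p = 0.407) and at 0.37 without A549, and IL1B at 0.65 ± 0.47 (adjusted p = 0.571) and at 0.08 without PC9. So in IL18, NLRP1 and IL1B 1 line supplied much of the mean. The other 4 estimates were 0.38 ± 0.31 for GSDMD, 0.24 ± 0.18 for CASP4, 0.23 ± 0.30 for NLRP3 and 0.17 ± 0.26 for GSDMB, with adjusted p from limma between 0.588 and 0.795. NLRP3 turned to -0.07 without H1299, GSDMB turned to -0.03 after quantile normalization, and GSDMD was at 0.08 without H1299.

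With H1792 added, limma called 53 of 22814 genes higher (0.232%), all 10 members were tested and were above 0, and none was called. At an unadjusted p under 0.05 there were 3 members, against 8.92% of all genes.

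**Figure D3:**
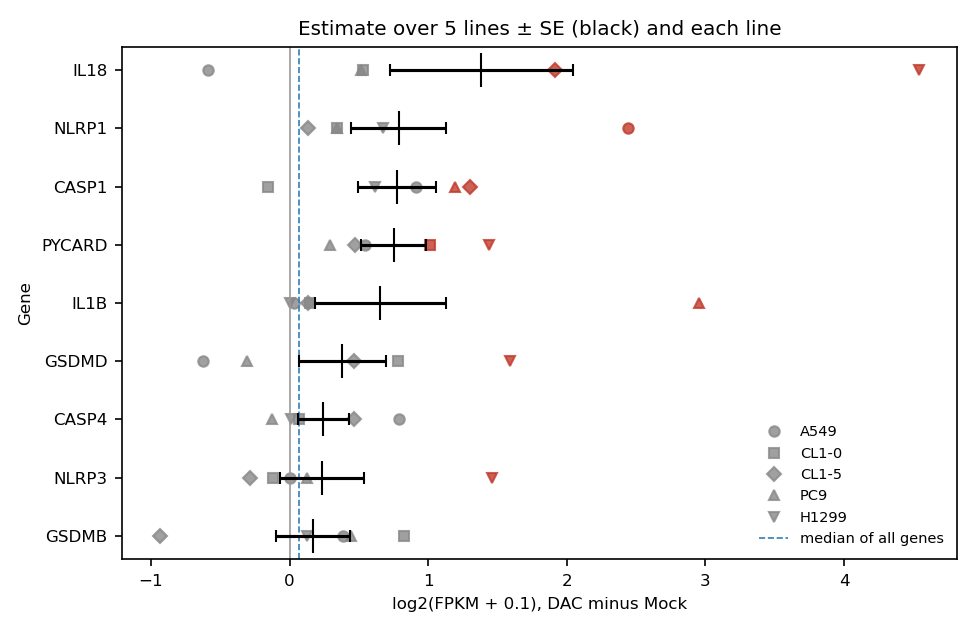
Estimate over 5 lines with its SE (black) and the difference in each line (symbols, in red at 2-fold or more) for the 9 genes tested, as log2(FPKM + 0.1), DAC minus Mock; the dashed line is the median of all genes, 0.07. The 9 estimates lie between 0.17 and 1.38, and IL18, NLRP1 and IL1B each have 1 line far to the right of the others.

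The other genes of the pathway, 41 by textbook role, also had more estimates above 0 than below. In limma over the 5 lines 31 passed the filter, 0 were called, 25 had an estimate above 0 and 3 had an unadjusted p under 0.05, all higher, with a median estimate of 0.21. Over all genes 58.8% were above 0 and 8.07% had an unadjusted p under 0.05 and were higher, so the 3 of 31 are near the background. The 3 were NLRP12 (0.90 ± 0.26), NLRP7 (0.78 ± 0.28) and PANX1 (0.41 ± 0.14), of which NLRP12 and NLRP7 are named after their values were seen. Their adjusted p from limma was 0.283 for NLRP12, 0.339 for NLRP7 and 0.331 for PANX1. PANX1 forms the ATP-release channel upstream of NLRP3.

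By role, sensors and their relatives had 9 of 10 tested above 0, from CARD8 at -0.30 ± 0.20 to NLRP2 at 1.52 ± 0.65. NLRP2 stood at 0 FPKM in Mock and 0.728 in DAC in CL1-0 and at 0.00584 and 1.70 in CL1-5, while in A549 and PC9 it was over 13 FPKM in each library. Both caspases tested (2 of 2) were above 0, CASP5 at 0.11 ± 0.22 and CASP8 at 0.29 ± 0.15. Gasdermins and rupture proteins had 2 of 5 above 0, from GSDME at -0.49 ± 0.29 to GSDMA at 0.42 ± 0.25. Gasdermin E, another pore-forming gasdermin, was lower by more than 2-fold in CL1-5 (2.33 to 0.912 FPKM) and H1299 (3.36 to 1.38).

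Of the cytokines and release factors tested 1 of 2 was above 0, IL1A at 0.91 ± 0.40 and the alarmin HMGB1 at -0.19 ± 0.20. Receptors had 3 of 3 above 0, from IL18R1 at 0.04 ± 0.22 to IL1RAP at 0.22 ± 0.24. Inhibitors had 6 of 7 above 0, from DPP9, which restrains NLRP1, at -0.18 ± 0.13 to IL18BP, the decoy for interleukin-18, at 0.36 ± 0.27. Upstream triggers had 2 of 2 above 0, with TXNIP, a binding partner of NLRP3, at 1.21 ± 0.67, where H1299 went from 0 to 1.79 FPKM and CL1-5 from 11.5 to 5.26.

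**Figure D4:**
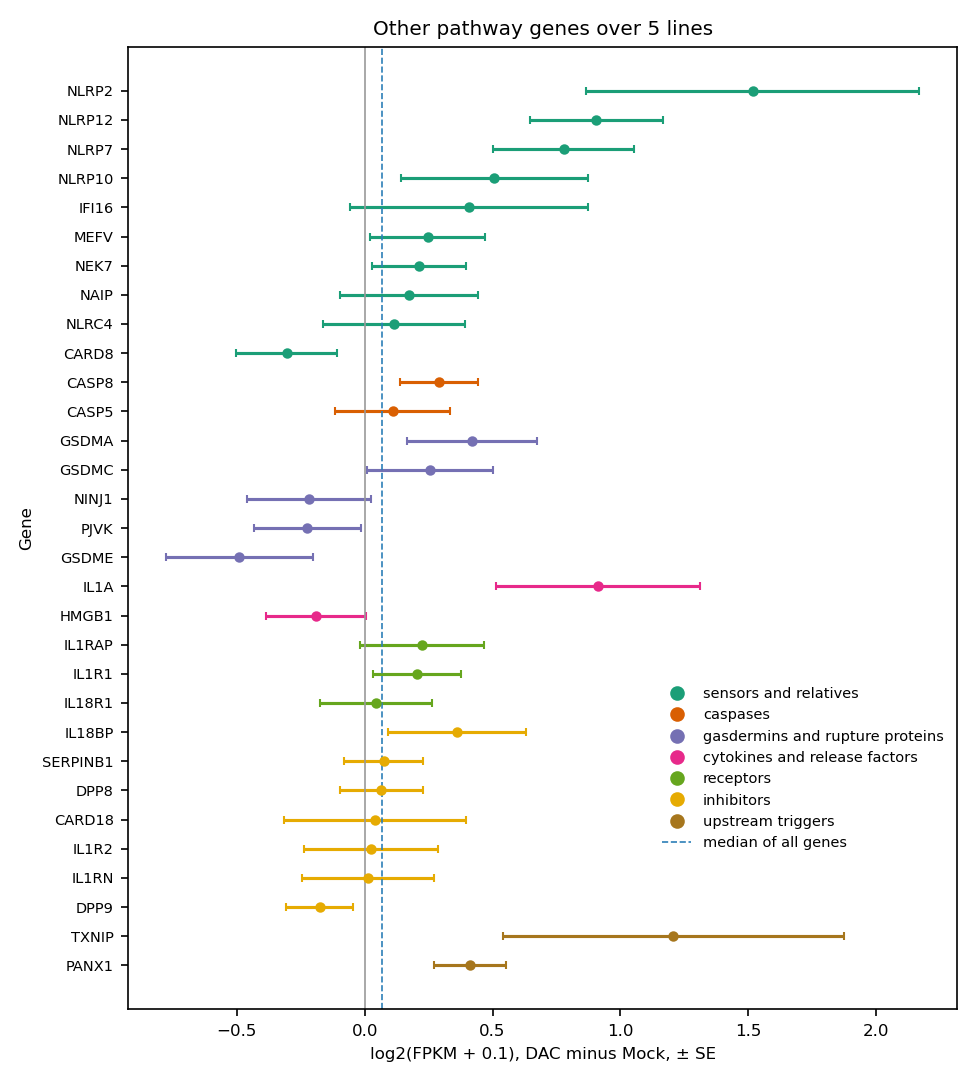
Log2 fold change with its SE over 5 lines (DAC minus Mock, log2(FPKM + 0.1)) of the 31 other pathway genes that passed the filter, coloured by role; the dashed line is the median of all genes, 0.07. Estimates run from GSDME at -0.49 to NLRP2 at 1.52.

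Promoter accessibility was read from the ATAC peak lists, in which each peak is assigned to a gene. It counts as a promoter peak within 3000 bp of the start that the lists use. For CASP1 that start is not the GENCODE v44 one, as given below, and the counts include its listed peaks. Over the 10 members, peaks were listed for 5 in Mock and 6 in DAC in A549 and for 4 and 6 in H1299. Under the label CL1-5 they were listed for 7 and 8, and under the label PC9 for 6 and 10. If these labels are exchanged, CL1-5 has 6 and 10 and PC9 has 7 and 8. The background is 16211 genes with a symbol, a GENCODE transcript and a mean of at least 0.1 FPKM over the 12 mRNA-seq libraries. Of them 73.9% had a promoter peak in Mock and 76.4% in DAC in A549, and 70.9% and 73.5% in H1299. Under the label CL1-5 the shares were 76.1% and 77.4%, and under the label PC9 74.6% and 77.0%. All DAC lists were longer than their Mock lists, with 78199 against 58734 peaks in A549, 63541 against 45354 in H1299, 97584 against 85710 labelled CL1-5 and 91061 against 71204 labelled PC9. The part of list length in the gains was not tested beyond the lists of equal length given at the end.

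Peaks gained after DAC were listed for NLRP3 and GSDMB in A549 (2 of 5 members without a Mock peak, where 20.8% of such genes gained one). In H1299 they were IL18 and IL1B (2 of 6, against 19.1%). Under the label CL1-5 they were PYCARD and AIM2 (2 of 3, against 15.4%), and under the label PC9 CASP4, AIM2, GSDMB and IL18 (4 of 4, against 19.8%). The PYCARD peak counted as gained lay at -1089 bp with a fold enrichment of 1.97. A peak over the PYCARD start, listed for PYCARD-AS1, was already there in the Mock library labelled CL1-5, with a fold enrichment of 3.41. Peaks were lost for CASP1 in A549 and under the label CL1-5, and the share of genes with a Mock peak that lost it was 4.01% in A549, 4.16% in H1299, 3.09% labelled CL1-5 and 3.56% labelled PC9. The peaks listed for CASP1 lay 11678 to 11799 bp upstream of the gene as GENCODE v44 gives it, so they do not bear on its annotated start.

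In H1299 the gained IL18 peak was at chr11:112034724-112034950 and covered the IL18 start. Its fold enrichment was 4.14, at the 37.1 percentile of promoter peaks in its list. The IL18 transcript of that line went from 0.246 to 7.96 FPKM. In Mock, H1299 had a peak in IL18 intron 1, at chr11:112028129-112028340, with a fold enrichment of 6.04, and none was listed there in DAC. The libraries under the other labels all had a peak at that place, in Mock and in DAC. In H1299 DAC another intron 1 peak was listed, at chr11:112029808-112030114, with a fold enrichment of 2.97. A549, with IL18 at 36.6 FPKM in Mock, had a peak over the IL18 start in both libraries with a fold enrichment of 11.4 in Mock and 9.04 in DAC. The IL1B peak gained in H1299 was 2119 bp inside the gene with a fold enrichment of 2.87, and IL1B had no read in that line. Gained AIM2 peaks, with fold enrichments of 3.58 (labelled CL1-5) and 4.24 (labelled PC9), covered 121 and 198 of the 250 promoter bases printed above but not the RefSeq start itself. If the labels of these libraries are exchanged, the second is the one of CL1-5, the line with AIM2 at 1 read in Mock and 14 in DAC, while PC9 had no AIM2 read in either library.

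At PYCARD the peaks listed for the gene lay at -1127 to -952 bp from the start that the peak lists use. They lay 278 to 453 bp from the nearest GENCODE v44 start. Their fold enrichments were 1.97 to 2.83, at or under the 3.58 percentile of their lists. Peaks over the RefSeq start (base 31214081) were listed for PYCARD-AS1. They reached the start in 2 of 4 Mock libraries (H1299 and labelled CL1-5) and 4 of 4 DAC libraries, and in the Mock libraries of A549 and labelled PC9 they ended 111 and 185 bases short of it. Over the 8 libraries their fold enrichment was 2.38 to 3.41, so that a peak at or next to the start was listed in every library. In H1299, where PYCARD had no read in Mock, the peak covered 204 of the 250 promoter bases printed above in Mock and 11 in DAC. NLRP1, the sensor expressed in all lines, had a promoter peak in 8 of 8 libraries, with fold enrichments of 3.65 to 5.93. GSDMD had one in 6 of 8, with none in the libraries of H1299, where the transcript was at 0.328 and 1.19 FPKM.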

How the data were processed

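mRNA-seq of 12 libraries and Omni-ATAC-seq of 8 libraries were analysed, grouped by line and treatment as labelled. The authors trimmed and aligned the mRNA reads (RSEM with bowtie2, hg19), counted genes of GENCODE 25lift37 and deposited FPKM per library made with DESeq2 1.24.0. The submitters' processing notes name TopHat2 2.1.1 instead, and which aligner made the table is not settled by the sources used here. The deposited base mean signal (mean normalized count) was used together with FPKM to recover whole reads, which came out whole for 100.0% of values within 0.01 reads. The deposited log2 fold changes, their standard error and test statistic scores and p-values are the authors' own comparison and were not used. All columns of values had a sample (0 without one). For ATAC-seq the authors aligned with BWA 0.7.17-r1188, marked duplicates with Picard 2.21.4, removed them with SAMtools 1.9, called broad peaks per library with MACS2 2.2.5 and annotated them with ChIPseeker 1.20.0. The deposited lists give a fold enrichment ratio, a score and −log10 p- and q-values. Peak heights were compared only within a list.

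Differences were taken on log2(FPKM + 0.1), which understates the change of low genes. Mock and DAC were compared across 5 lines with limma 3.58.1 (R 4.3.3), cell line as a block, intensity trend, genes with a mean of at least 0.1 FPKM over the 10 libraries, two-sided moderated tests and Benjamini-Hochberg adjustment over all 22603 genes. The Mock and DAC libraries are paired by cell line, from the labels. After subtraction of each treatment's mean, Mock and DAC of a line correlated at 0.73 to 0.90, and at 0.12 at most with those of another line. Nothing in the labels says that lines were cultured more than once, so p-values measure the spread between lines. Within a line, where there was 1 library per arm, there was no test, and a 2-fold limit was set beside the share of all 22814 genes past it. Silent means a Mock FPKM under 0.1, and the floor was 3 reads. Ratio intervals (95%) used Python 3.11.15 with scipy and cover counting error only. Where Mock had a count of 0, the DAC level was divided by that floor, without the counting error of the DAC reads. The method was tested on simulated data with known changes.

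All 10 members were named. Of the other pathway genes, those past the threshold and the highest and lowest per role were to be named, and for PYCARD the 3 genes most like it. 1 gene of the pathway list is not reported here and was left out of its counts and medians. The members and lists were chosen with earlier results of these data known. Alternatives were other lines, pseudocounts, filters, scalings, no trend, no block, voom on the recovered reads, each line left out, other fold and silence limits, and other peak windows, thresholds, list lengths, annotations and labels. Gene positions are from GENCODE v44lift37 on GRCh37, counted from 1.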

Additional observations from a re-analysis of the deposited data

Results flagged for a closer look

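Of 30 sets of values (the Mock level, the DAC level and the change of the 10 genes, as log2(FPKM + 0.1) over 6 lines), 7 had 1 line standing apart from the other 5 by Dixon's criterion. The criterion has a rate of about 5% for separate, normally distributed values. Here lines without a read are tied, and the Mock level, DAC level and change of a gene are not separate sets. That rate therefore does not apply, and the flags are a description. H1792 was the high line for the level of CASP1 in Mock (1.08, with the next line at -2.11) and in DAC (2.43, next -1.40). H1792 was also high for AIM2 in Mock (2.61, next -3.08) and in DAC (3.10, next -1.37) and for IL1B in DAC (7.27, next 0.33). For the change, CL1-5 stood apart in AIM2 (1.71, next 0.48), where the Mock library held 1 read. H1299 stood apart in NLRP3 (1.46, next 0.25). H1792 is not among the 5 lines of the main comparison, so its values of CASP1, AIM2 and IL1B are in no test of it. None of the 10 genes was higher past 2-fold in 1 line and lower past 2-fold in another.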

How the results depend on the processing

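Across the 15 alternatives of the fit no member and no other pathway gene passed the adjusted threshold in limma, and the lowest adjusted p of a member under any of them was 0.210. Of 132 estimates of members under the alternatives, 130 kept their direction, and 2 reversed, NLRP3 at -0.0716 without H1299 and GSDMB at -0.0286 after quantile normalization. The cause of each was not tested. The count of all genes called higher, 27, was 53 with H1792 added, 0 with a pseudocount of 1, 2 with no filter, 17 after quantile normalization, 6 with no trend and 199 with voom on recovered reads. It was 0 to 22 with 1 line left out (0 without A549 and 0 without CL1-5, 5 without CL1-0, 12 without PC9), and the count of genes called lower, 0, was 0 to 1. With no cell line block 10 genes were called higher, and the block changed no call on a member. The median estimate of the members, 0.65, was 0.16 with a pseudocount of 1, 0.87 with 0.01, 0.31 after quantile normalization, 0.91 with voom and 0.55 to 0.68 with 1 line left out. The median of the other pathway genes, 0.21, was 0.0830 and 0.37 with these pseudocounts, 0.0694 for genes with a mean of at least 1 FPKM, 0.31 after rescaling to a common sum, 0.0347 after quantile normalization, 0.28 with voom and 0.11 to 0.23 with 1 line left out, lowest without A549. Rescaling moved the median of all genes by 0.10, quantile normalization by -0.11 and voom by 0.11, and the members' median lay 0.50, 0.35 and 0.74 above the median of all genes under them, against 0.59 as reported.

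The 15 pairs past 2-fold higher became 7 with a pseudocount of 1 and 4 with a 4-fold limit, and the 0 pairs lower became 1 with a pseudocount of 0.01 (CASP1 in CL1-0, on 1 read), 1 after rescaling to a common sum (GSDMB in CL1-5) and 3 with a 1.5-fold limit (GSDMD and IL18 in A549, GSDMB in CL1-5). Rescaling to a common sum also added CASP1 and CASP4 in A549 to the higher pairs. The count of promoter peaks lost after DAC, 2 (CASP1 in A549 and labelled CL1-5), was 1 within 1000 bp (PYCARD labelled PC9, neither CASP1 peak), 5 with lists of equal length (both CASP1 peaks, and PYCARD in A549, H1299 and labelled PC9) and 1 with any GENCODE transcript start (AIM2 in A549, neither CASP1 peak). At a q-value under 0.01 IL1B labelled CL1-5 was lost as well as both CASP1 peaks. The count gained, 10, was 7 within 1000 bp, 7 at a q-value under 0.01, 8 with lists of equal length and 8 with any GENCODE start. IL18 in H1299 and CASP4, GSDMB and IL18 labelled PC9 were gained under each of these, as was AIM2 labelled CL1-5. Both A549 gains (NLRP3 and GSDMB) and IL1B in H1299 were not gained at a q-value under 0.01, PYCARD labelled CL1-5 was not gained within 1000 bp, with lists of equal length or with any GENCODE start, and AIM2 labelled PC9 was not gained with any GENCODE start. GSDMB in A549 was also not gained within 1000 bp or with lists of equal length, nor IL1B in H1299 within 1000 bp. The cause was not tested beyond these settings. Levels resting on fewer than 20 reads, such as PYCARD in CL1-0, CL1-5 and H1299, could not show a change of less than a few-fold at this depth.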

Other observations

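CARD16, a decoy of caspase-1 that lies beside CASP1 and is near-identical to its first part, was past 2-fold higher after DAC in 4 of 6 lines and is named after its values were seen. It stood at 0 FPKM in Mock and 0.164 in DAC in A549, 0 and 0.205 in PC9, 0.0207 and 0.179 in H1299 and 2.15 and 7.50 in H1792, with 0.0656 and 0.171 in CL1-5 and 0 in both libraries of CL1-0. In the 5 lines other than H1792 it rested on at most 3 reads in Mock and 16 in DAC. Of all genes, 15.5% in A549, 10.3% in PC9, 8.04% in H1299 and 11.0% in H1792 were past 2-fold higher. Among genes silent in Mock these shares were 39.7% in A549, 27.4% in PC9 and 10.4% in H1299. The share of reads common to CARD16 and CASP1 was not tested.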
